A study of Mus musculus with 35 samples.

Results

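Slow-cycling and fast-cycling cells of the basal layer of mouse back skin were set against each other in 3 LRC libraries (label-retaining cells, labelled slow-cycling) and 3 nLRC libraries (cells that had lost the label, fast-cycling). These 6 libraries, of 35 in the whole series, were picked by their labels, with no measured value used to assign them. All came from C57BL/6J mice aged 2 months with the genotype K5-tTA/pTRE H2B-GFP. The mice had eaten doxycycline chow for 2 weeks. The labels name no animals, so the p-values measure only how far these samples spread, part of which may be technical. Other groups of the same genotype, strain and age served for comparison. From back skin these were LRC and nLRC of the spinous layer, the granular layer and the hair follicle bulge, and from tail skin the LRC and nLRC of the basal layer (3 libraries each, 2 weeks of doxycycline). From palate and tongue there were 2 LRC and 2 nLRC libraries each, after 10 days of doxycycline.

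The basal layer is the dividing layer of the epidermis, attached to the basement membrane, and it feeds the spinous and granular layers above it. In the label system used here, the keratin 5 promoter drives a transactivator that switches on a fusion of histone H2B with GFP. Doxycycline stops its production, and each division then dilutes the GFP. The label therefore ranks cells by divisions during the chase only among cells in which the keratin 5 promoter had been active, and a cell that never made the fusion would also lack the label.

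Total reads on genes were 14463777 to 19259912 in LRC and 17759195 to 20560481 in nLRC libraries. A set of ribosomal RNA type genes such as Rn45s took 6.48 to 8.002% of these reads in LRC and 8.17 to 8.67% in nLRC libraries. The set also held the protein-coding genes Zc3h7a, Peak1, Filip1l and Gphn, so this is not a share of ribosomal RNA alone. Between 18966 and 19840 genes had a read in LRC libraries, and 20287 to 20794 in nLRC libraries. Both measures separated the groups, and their part in the results was not tested. Basal keratinocyte markers were high in both groups. Krt5, a basal keratin, averaged 15635 ± 436 in LRC and 17045 ± 1106 CPM in nLRC libraries (mean ± SD, n = 3 each, as everywhere below; CPM are edgeR's counts scaled for library size), and the integrin gene Itga6 averaged 738 ± 66.2 in LRC and 686 ± 36.1 CPM in nLRC libraries. Cd34, a surface marker of the mouse bulge, averaged 0.0506 ± 0.0877 in LRC and 0.256 ± 0.222 CPM in nLRC libraries. Xist, which is read from the inactive X chromosome of females, had 1953 CPM in LRC library 1 and 1894 CPM in nLRC library 1, and at most 0.942 CPM in the 4 libraries numbered 2 and 3. The sum of 4 Y-linked genes was 0.121 CPM in LRC library 1 and 0.798 CPM in nLRC library 1, and 199 to 248 CPM in the libraries numbered 2 and 3. The libraries numbered 1 therefore come from other mice than those numbered 2 and 3, in LRC and nLRC alike. Dlx1 and Slc1a3 are known as markers of slow- and fast-cycling epidermal cells in the mouse. Dlx1 had 2.60, 1.82 and 2.37 CPM in LRC against 0.691, 1.13 and 1.06 CPM in nLRC libraries 1 to 3, and Slc1a3 had 17.6, 13.7 and 18.8 CPM in LRC against 25.3, 28.7 and 20.1 CPM in nLRC libraries 1 to 3. The 3 libraries of each group did not overlap for either gene, Dlx1 being higher and Slc1a3 lower in LRC. Over all genes tested, 6.2% separated upward and 8.67% downward in this way. Neither of the 2 genes passed the test (log2 fold changes 1.23 ± 0.88 and −0.57 ± 0.62, ± SE).

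Slow-cycling cells had more RNA of 2 genes and less of 37, out of 16574 tested. Those with more were Igfbp3, which encodes a carrier of insulin-like growth factors (IGFs), and Skint7, a member of the Skint family of skin genes. Those with less included 2 other IGF-binding proteins, secreted and matrix proteins such as Lama4 and C3, surface proteins such as Alcam and Cd200, the transcription factors Foxc1, Irx1, Irx4 and Bnc2, and lipid enzymes such as Cers4 and Mgst1. A gene counted as changed where its adjusted p fell under 0.05 in edgeR's quasi-likelihood test (two-sided, Benjamini-Hochberg). This is 0.235% of the genes tested, 0.0121% higher and 0.223% lower. The 37 lower genes had a median log2 fold change of −3.07 (−2.96 with Pm20d1, which had no read in LRC, at its bound), while the median over all genes tested was −0.01. All 3 LRC libraries lay above all 3 nLRC libraries in CPM for both higher genes, and below for each of the 37 lower genes. Over all genes tested this held for 6.2% upward and 8.67% downward. With the replicate number as a block, 95 genes passed (0.573%), 5 higher (0.0302%) and 90 lower (0.543%), and they include all 39. In bulk samples such as these, fewer cells of a type and less RNA per cell cannot be told apart.

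**Figure D1:**
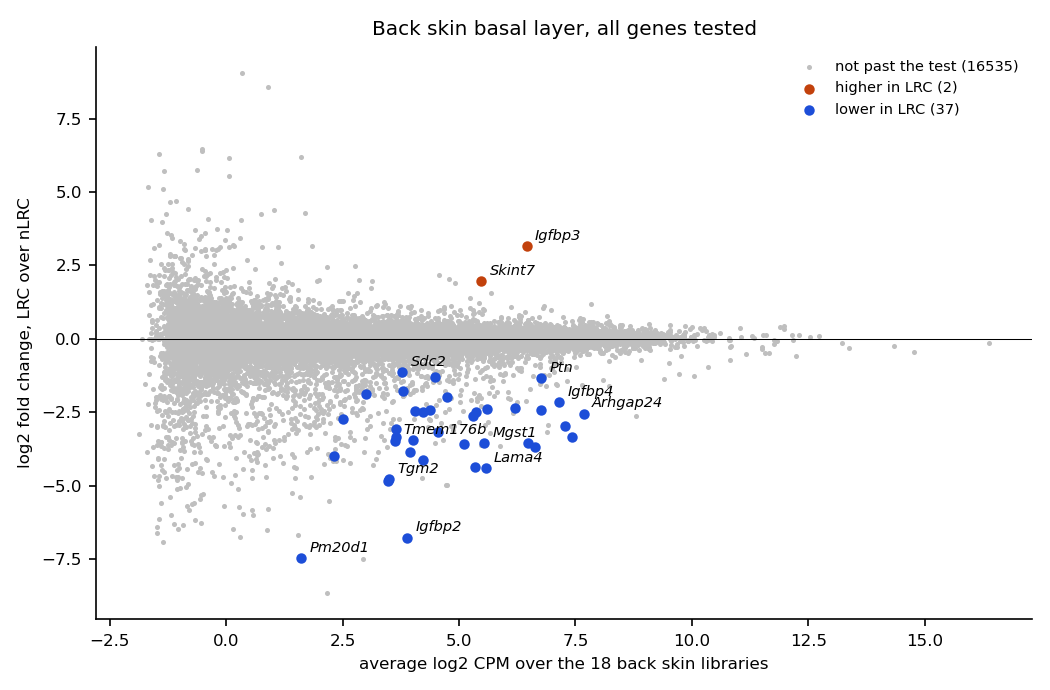
Log2 fold change of LRC over nLRC (vertical axis) against the average log2 CPM over the 18 back skin libraries (horizontal axis), one point for each of the 16574 genes tested in back skin basal layer. The 2 genes past the test and higher in LRC are orange, the 37 lower in LRC are blue, and the fitted values of the lower genes sit between −7.46 and −1.14.

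IGF-binding proteins carry IGFs in tissue fluid and set how much reaches the receptor Igf1r; Igfbp2, Igfbp3 and Igfbp4 are members of the family that bind IGFs with high affinity. In the basal layer they moved in opposite directions. Igfbp3 (ENSMUSG00000020427.11, chr11:7206086-7213923 on mm10, minus strand) had 350.3, 208 and 307 CPM in LRC against 36.1, 23.5 and 37.5 CPM in nLRC libraries 1 to 3. Every LRC library was above every nLRC library, by log2 ratios of 3.28, 3.14 and 3.03 within replicate numbers 1, 2 and 3. The log2 fold change was 3.16 ± 0.52 (edgeR adjusted p = 0.0219, and 0.00186 with the replicate block). Igfbp2 (ENSMUSG00000039323.18, chr1:72824503-72852474, plus strand) had 0.0604, 0.101 and 0.0696 CPM in LRC against 2.93, 16.6 and 8.61 CPM in nLRC libraries 1 to 3. Its LRC values rest on 1, 2 and 1 reads, against 55, 353 and 154 reads in nLRC libraries. The groups lay far apart, and the log2 fold change was −6.77 ± 1.01 (edgeR adjusted p = 0.0135). Igfbp4 (ENSMUSG00000017493.12, chr11:99041244-99054392, plus strand) had 11.00, 20.04 and 25.9 CPM in LRC against 45.3, 91.3 and 116 CPM in nLRC libraries 1 to 3. Its levels differed between replicate numbers in both groups, lowest in number 1 and highest in number 3, while the log2 ratio within numbers was −2.04, −2.18 and −2.16. Its log2 fold change was −2.15 ± 0.37 (edgeR adjusted p = 0.0321).

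The windows around the annotated starts of these 3 genes are given because members of one family changed in opposite directions (RefSeq, GRCm38.p6, 250 bases before the start to 50 after it, 5′ to 3′ along the gene, chr11:7213874-7214173, minus strand for Igfbp3, chr1:72824230-72824529, plus strand for the first of 2 windows of Igfbp2 and chr11:99040994-99041293, plus strand for Igfbp4). Capitals mark matches on either strand to the TATA box (TATAAA), to the CCAAT box (letters as its name), to the GC box (GGGCGG) or to the AP-1 site (TGANTCA).
Igfbp3: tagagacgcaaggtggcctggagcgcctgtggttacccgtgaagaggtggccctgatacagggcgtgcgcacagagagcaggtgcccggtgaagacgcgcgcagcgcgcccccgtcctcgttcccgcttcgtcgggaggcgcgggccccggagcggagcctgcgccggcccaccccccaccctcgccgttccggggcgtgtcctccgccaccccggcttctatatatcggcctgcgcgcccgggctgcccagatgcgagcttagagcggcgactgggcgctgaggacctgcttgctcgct
Igfbp2: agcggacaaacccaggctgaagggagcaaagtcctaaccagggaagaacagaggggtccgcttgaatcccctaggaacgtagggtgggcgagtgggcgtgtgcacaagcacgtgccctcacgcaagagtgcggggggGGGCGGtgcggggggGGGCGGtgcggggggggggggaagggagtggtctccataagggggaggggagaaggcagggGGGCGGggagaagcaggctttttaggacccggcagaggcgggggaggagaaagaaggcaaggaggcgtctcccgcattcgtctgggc
Igfbp4: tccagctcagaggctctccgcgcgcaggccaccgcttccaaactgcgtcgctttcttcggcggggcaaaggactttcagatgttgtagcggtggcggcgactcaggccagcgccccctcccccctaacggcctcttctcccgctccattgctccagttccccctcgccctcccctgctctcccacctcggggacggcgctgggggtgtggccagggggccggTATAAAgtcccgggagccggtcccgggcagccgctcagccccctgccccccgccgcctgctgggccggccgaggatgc
The Igfbp2 window held 3 matches, all to GGGCGG. The Igfbp4 window held 1 match, to TATAAA, beginning 28 bases before the start. The Igfbp3 window held none of these letters. Over all 32851 windows of the table, 13.6% held the TATA box, 37.4% the CCAAT box, 35.7% the GC box and 7.81% the AP-1 site, and the matches shown do not overlap each other. The windows hold the annotated start only, and absence of these letters says nothing about other sequence.

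Of 18 measured genes among IGF ligands, receptors and binding proteins, 1 rose, 2 fell and 15 did not pass. The receptor gene Igf1r had 530.1, 431 and 420.2 CPM in LRC against 432, 348 and 389 CPM in nLRC libraries 1 to 3 (0.24 ± 0.30). The insulin receptor gene Insr (0.17 ± 0.27), the scavenging receptor gene Igf2r (0.06 ± 0.27) and the adaptor genes Irs1 (0.35 ± 0.48) and Irs2 (−0.30 ± 0.38) did not pass either. Of these, Irs1 was higher in a fit of the 6 libraries alone with the replicate block (2.36% of all genes in that fit). Igfbp7, a related protein with low affinity for IGFs, averaged 17.5 ± 2.11 in LRC and 13.2 ± 1.90 CPM in nLRC libraries. Igfbp5 had no read in LRC libraries and 0.120 CPM on average in nLRC libraries, under the level of 3 reads per library. Stc2, which inhibits the protease that cuts Igfbp4, had 0, 0.304 and 0.139 CPM in LRC against 0.0532, 2.50 and 4.81 CPM in nLRC libraries 1 to 3, and the protease gene Pappa averaged 1.15 in LRC and 3.36 CPM in nLRC libraries, neither past the test.

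Skint7 (ENSMUSG00000049214.13, chr4:111972923-111988223, plus strand) was the other gene higher in LRC. Skint genes encode immunoglobulin-like membrane proteins of keratinocytes and thymic epithelium, and Skint1 is known in the mouse for selecting the γδ T cells that settle in the epidermis. Skint7 had 67.5, 76.1 and 85.4 CPM in LRC against 18.5, 19.6 and 20.2 CPM in nLRC libraries 1 to 3, a log2 fold change of 1.97 ± 0.30 (edgeR adjusted p = 0.0135). The spread within each group was small beside the gap, and the ratios within replicate numbers were 1.86, 1.95 and 2.07. Of the 11 measured Skint genes 1 rose and 10 did not pass, with a list median of 0.34 and 10 members above 0, while 48.6% of all genes tested were above 0. Skint1 had 87.7, 116 and 122 CPM in LRC against 67.2, 64.98 and 75.2 CPM in nLRC libraries 1 to 3 (0.65 ± 0.35), and Skint6 had 156, 161 and 157 CPM in LRC against 147, 92.7 and 72.1 CPM in nLRC libraries 1 to 3 (0.60 ± 0.50). In both, the 3 LRC libraries lay above the 3 nLRC libraries (6.2% of all genes tested). In the fit of the 6 libraries alone with the replicate block, Skint1, Skint6 and Skint7 were higher (2.36% of all genes in that fit). Summed over the 11 genes, the family had 514 to 543 in LRC and 296 to 449.8 CPM in nLRC libraries. Skint3 was the only member below 0 (−0.39 ± 0.21), with LRC below all nLRC libraries (8.67% of all genes tested). With the block or on exon TPM 2 members were below 0. Skint genes are related copies in one cluster, and how any reads shared between them were counted is not given in the sources used here.

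**Figure D2:**
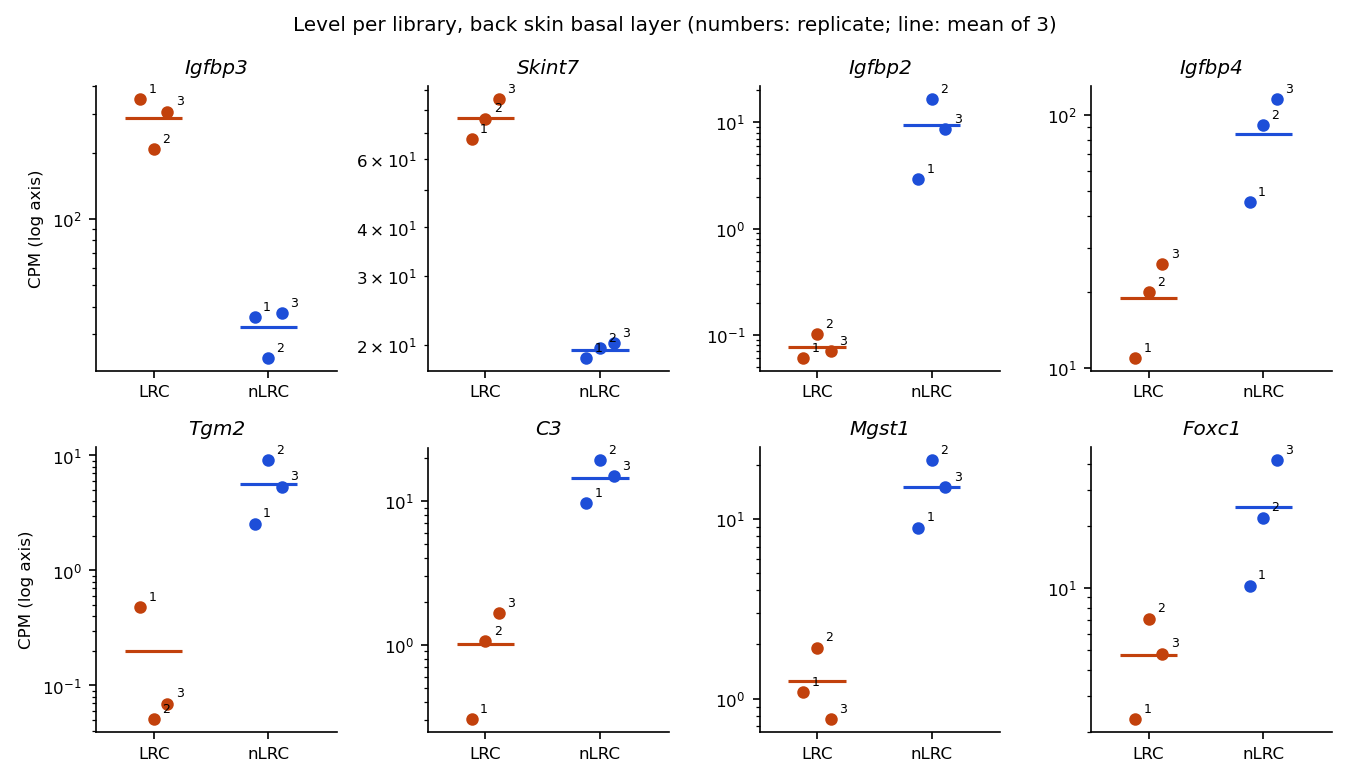
Level in CPM (vertical axes, log scale) of 8 genes in each library of back skin basal layer, LRC left and nLRC right, with the replicate number beside each point and a line at the mean of 3 libraries. Igfbp3 and Skint7 lie higher in the 3 LRC libraries, the other 6 genes lower, and nLRC library 1 is the lowest of its group for those 6.

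The genes next in line upward did not pass and are given as values. The transglutaminase gene Tgm7 had 42.6, 36.7 and 53.2 CPM in LRC against 10.3, 5.23 and 14.1 CPM in nLRC libraries 1 to 3 (2.16 ± 0.44, edgeR adjusted p = 0.0597, and 0.00186 with the replicate block). Tgm5, its neighbour on chromosome 2, which cross-links proteins of the cornified envelope, had 15.1, 10.2 and 14.1 CPM in LRC against 3.78, 4.01 and 7.27 CPM in nLRC libraries 1 to 3 (1.39 ± 0.44). Pi15, a secreted peptidase inhibitor, had 19.7, 8.71 and 8.70 CPM in LRC against 2.87, 3.02 and 3.13 CPM in nLRC libraries 1 to 3, and the myosin motor gene Myo5a had 143, 154 and 178 CPM in LRC against 89.1, 93.96 and 102 CPM in nLRC libraries 1 to 3; edgeR adjusted p was 0.0714 and 0.108, and 0.0390 and 0.0318 with the block. So the 5 higher genes of the blocked fit were Igfbp3, Skint7, Tgm7, Pi15 and Myo5a. The protease inhibitor gene Spink5 (0.82 ± 0.20), the chitinase gene Chit1 (1.18 ± 0.32), Plat, which encodes tissue plasminogen activator (0.72 ± 0.21), and Trpv1, the capsaicin receptor (1.71 ± 0.49), also had LRC libraries above all nLRC libraries and did not pass in either fit.

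The 37 lower genes are described by what their products are known to do, with no test of the grouping. Several act outside the cell or at its surface. Lama4, a laminin chain of basement membranes, had 0.967, 0.709 and 1.81 CPM in LRC against 18.9, 28.7 and 24.8 CPM in nLRC libraries 1 to 3 (−4.40 ± 0.62, edgeR adjusted p = 0.0127). Its LRC values were a small fraction of the nLRC values in every pair, with log2 ratios of −4.22, −5.24 and −3.74. C3, the central complement protein, had 0.302, 1.06 and 1.67 CPM in LRC against 9.68, 19.2 and 14.9 CPM in nLRC libraries 1 to 3 (−3.86 ± 0.75). Scube2, a secreted protein that helps release Hedgehog ligands, had 4.35, 8.45 and 4.66 CPM in LRC against 25.6, 40.3 and 33.3 CPM in nLRC libraries 1 to 3 (−2.50 ± 0.37). Fbln7, a matrix protein of the fibulin family, fell too (−2.72 ± 0.46). So did Ptn, the heparin-binding growth factor pleiotrophin (−1.34 ± 0.25), and Sdc2, a heparan sulphate proteoglycan (−1.14 ± 0.21), which had the smallest fall of the 37. Enpp1, an ectoenzyme that makes pyrophosphate from ATP, averaged 1.78 ± 0.772 in LRC and 10.1 ± 3.52 CPM in nLRC libraries. Pm20d1, a secreted enzyme that joins fatty acids to amino acids, had no read in any LRC library and 1.06, 1.79 and 1.17 CPM in nLRC libraries, which makes it at least 7.43-fold lower against a floor of 3 reads per library. Tgm2, the widely expressed tissue transglutaminase found inside and outside cells, had 0.483, 0.0506 and 0.0696 CPM in LRC against 2.55, 9.05 and 5.37 CPM in nLRC libraries 1 to 3 (−4.78 ± 0.77, edgeR adjusted p = 0.0219), in the opposite direction to the values of Tgm5 and Tgm7. LRC library 1 held 8 reads of Tgm2 and the other 2 LRC libraries 1 read each. Tgm2 overlaps Rprd1b on the opposite strand, so their reads cannot be told apart where strand was not used.

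Among surface and adhesion proteins, Tmem176b had the smallest adjusted p of all genes. It had 1.03, 1.11 and 1.53 CPM in LRC against 8.46, 15.6 and 16.5 CPM in nLRC libraries 1 to 3 (−3.47 ± 0.37, edgeR adjusted p = 0.000854). Its partner Tmem176a had 0.0604, 0.304 and 0.626 CPM in LRC against 3.30, 6.46 and 5.87 CPM in nLRC libraries 1 to 3 (−3.98 ± 0.64, edgeR adjusted p = 0.0219). Both encode related membrane proteins, and neither overlapped between groups. The genes lie head to head on chromosome 6 and overlap on opposite strands, and whether the counts used strand is not given, so reads of the overlap cannot be assigned to one of them. The start window of Tmem176a (chr6:48841233-48841532, plus strand, the first of 2) is shown because the genes fell together. Capitals mark the 208 bases that also lie in a start window of Tmem176b (chr6:48841325-48841624, minus strand).
Tmem176a: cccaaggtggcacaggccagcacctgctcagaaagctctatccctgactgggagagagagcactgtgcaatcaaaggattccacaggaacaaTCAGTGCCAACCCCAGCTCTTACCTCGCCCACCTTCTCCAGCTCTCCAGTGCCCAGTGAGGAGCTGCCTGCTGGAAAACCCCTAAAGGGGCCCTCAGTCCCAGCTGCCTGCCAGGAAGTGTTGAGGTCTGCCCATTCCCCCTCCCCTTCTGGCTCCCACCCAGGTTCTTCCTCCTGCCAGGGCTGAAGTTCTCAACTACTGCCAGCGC

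Other surface genes also fell. Alcam, an adhesion molecule of the immunoglobulin family, had 2.12, 5.26 and 4.73 CPM in LRC against 16.01, 23.4 and 26.00 CPM in nLRC libraries 1 to 3 (−2.43 ± 0.46). Cd200, whose product signals to the Cd200 receptor of immune cells, had 0, 0.152 and 0.557 CPM in LRC against 1.01, 3.25 and 7.88 CPM in nLRC libraries 1 to 3 (−4.14 ± 0.81, edgeR adjusted p = 0.0430), with 0, 3 and 8 reads in LRC libraries. The receptor tyrosine phosphatase gene Ptprk averaged 6.44 ± 1.55 in LRC and 50.3 ± 18.5 CPM in nLRC libraries (−2.96 ± 0.52). Avpr1a, a vasopressin receptor, had 0, 1.37 and 2.23 CPM in LRC against 7.23, 28.2 and 37.5 CPM in nLRC libraries 1 to 3 (−4.35 ± 0.84). The predicted gene Gm48877 (−4.82 ± 0.91) lies across Avpr1a on the opposite strand, was at 0 exon TPM in all 6 libraries, and cannot be separated from it by these counts. Ctnnd2, a catenin of cell junctions (−2.62 ± 0.51), and Epb41l3, which ties membrane proteins to the cytoskeleton (−1.89 ± 0.35), completed the group.

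The lower genes held 4 transcription factor genes. Foxc1, a forkhead factor known in mice for keeping bulge stem cells quiescent, had 2.30, 7.09 and 4.80 CPM in LRC against 10.3, 21.96 and 41.6 CPM in nLRC libraries 1 to 3 (−2.37 ± 0.47, edgeR adjusted p = 0.0433, the largest of the 39). The lowest nLRC library stood above the highest LRC library, though the nLRC libraries were spread widely, library 3 being the highest. Irx1 and Irx4, Iroquois homeobox genes in one cluster on chromosome 13, fell together. Irx1 had 3.87, 5.37 and 4.66 CPM in LRC against 10.4, 29.4 and 33.6 CPM in nLRC libraries 1 to 3 (−2.40 ± 0.45), and Irx4 had 0.302, 1.42 and 1.25 CPM in LRC against 4.47, 13.3 and 9.06 CPM in nLRC libraries 1 to 3 (−3.16 ± 0.54). In all 3 replicate numbers LRC was below nLRC. The zinc finger gene Bnc2 had 3.75, 5.47 and 5.43 CPM in LRC against 55.3, 48.6 and 43.8 CPM in nLRC libraries 1 to 3 (−3.33 ± 0.55). For Bnc2 nLRC library 1 was the highest of its group, which held for 4 others of the 37 (Man1a, Ptn, Sdc2 and Epb41l3). The RNA-binding protein gene Rbms3 had 1.33, 3.64 and 5.91 CPM in LRC against 28.6, 49.6 and 49.6 CPM in nLRC libraries 1 to 3 (−3.56 ± 0.59).

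Enzymes of lipid and drug metabolism and transport fell in LRC as well. Mgst1, a membrane-bound glutathione transferase, had 1.09, 1.92 and 0.765 CPM in LRC against 8.93, 21.1 and 14.99 CPM in nLRC libraries 1 to 3 (−3.54 ± 0.66). The ceramide synthase gene Cers4 had 2.36, 2.99 and 1.25 CPM in LRC against 14.4, 39.6 and 31.5 CPM in nLRC libraries 1 to 3 (−3.68 ± 0.69). Cyp1b1, a cytochrome P450 that oxidises steroids, retinoids and aromatic hydrocarbons, had 0.786, 0.607 and 0.417 CPM in LRC against 3.94, 9.66 and 8.39 CPM in nLRC libraries 1 to 3 (−3.57 ± 0.46, edgeR adjusted p = 0.00540). Every LRC library of these 3 genes was well under every nLRC library. Man1a, a mannosidase of the Golgi (−3.07 ± 0.56), AI464131 (−3.33 ± 0.59) and the sodium/proton exchanger gene Slc9a8 (−1.31 ± 0.25) also fell. The last lower genes serve signalling and trafficking. Arhgap24, which switches off the GTPase Rac, had 12.9, 17.7 and 13.01 CPM in LRC against 57.97, 115 and 82.3 CPM in nLRC libraries 1 to 3 (−2.55 ± 0.49). Dapk1, a calmodulin-regulated kinase of cell death (−3.46 ± 0.65), Dnajc6, the auxilin that uncoats clathrin vesicles (−2.44 ± 0.45), Sh3tc2, an endosomal protein (−2.47 ± 0.45), the membrane scaffold gene Mpp6, which overlaps Gsdme on the opposite strand (−1.77 ± 0.35) and Fam107b (−1.98 ± 0.36) made up the rest.

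The next genes downward missed the threshold and are given as values. They were Dlc1, a GTPase-activating protein (−1.22 ± 0.25), the aldehyde dehydrogenase gene Aldh3a1 (−2.16 ± 0.44), Sdr16c6, a retinol dehydrogenase family gene (−1.90 ± 0.39), Marcks, a substrate of protein kinase C (−1.26 ± 0.26), Fgd1 (−1.48 ± 0.31) and the lipid droplet coat gene Plin2 (−1.55 ± 0.32). Their edgeR adjusted p was 0.0554 to 0.0610, and 0.0167 to 0.0315 with the replicate block, under which all 6 passed.

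The calls rest on few libraries. When each of the 6 libraries was left out in turn, 3 genes passed without LRC 1, 3 without LRC 2, 5 without LRC 3, 50 without nLRC 1, 2 without nLRC 2 and 4 without nLRC 3. Tmem176b passed in all 6 of these fits and Cyp1b1 in 5. Igfbp3 and Skint7 passed in 1 of the 6, without nLRC 1 (33 of the 39 passed in that fit), and their edgeR adjusted p otherwise reached 0.141 and 0.122, while their log2 fold changes stayed within 2.98 to 3.35 and 1.88 to 2.06. The counts hold intron reads, so exon-based TPM served as a second measure. Igfbp3 had 672, 341 and 443 TPM in LRC and 58.5, 35.7 and 55.8 TPM in nLRC libraries, and Igfbp2 had 0.210, 0.290 and 0.180 TPM in LRC and 8.27, 42.98 and 21.5 TPM in nLRC libraries. All 3 LRC libraries were below all 3 nLRC libraries in TPM for 36 of the 37 lower genes (6.76% of all genes tested), Gm48877 being at 0, and above them for Igfbp3 and Skint7 (7.55%). By limma on log2(TPM + 1) no gene passed over all genes (396 genes had an unadjusted p under 0.05), and the log2 fold changes of the 36 measured lower genes were −4.09 to −0.65. Libraries numbered 1 were the ones with Xist reads, and nLRC library 1 was the lowest nLRC library for 31 of the 37 lower genes (38.4% of all genes tested). What number 1 adds to these genes was not tested.

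No gene on the cell cycle lists passed the test in the edgeR fit of all back skin libraries, which gave the calls and values below. In the fit of the 6 basal libraries alone with the replicate block, 6 DNA replication genes were higher. Of mitosis genes 2 were higher and 2 lower in it, and Cdkn1a and the cyclin gene Ccne2 were higher. Over all genes in that fit the shares were 2.36% higher and 3.81% lower. Of 30 mitosis genes none rose or fell, the median was −0.24, and 25 were below 0 (51.3% of all genes tested). Mki67, the common marker of cycling cells, had 118, 108 and 128 CPM in LRC against 113, 148 and 147 CPM in nLRC libraries 1 to 3 (−0.20 ± 0.52). Top2a (−0.21 ± 0.53) and Cdk1 (−0.27 ± 0.57) were also close to 0 relative to their errors, and all 3 genes overlapped between groups. Of the 4 mitosis genes with the smallest p, Ttk, a kinase of the spindle checkpoint, was above 0 (0.76 ± 0.37, LRC above all nLRC libraries). Plk1, a kinase of mitotic entry (−0.99 ± 0.65), the centromere histone gene Cenpa (−0.78 ± 0.59) and Aurkb, a kinase of chromosome segregation (−0.67 ± 0.62), were below 0, and none passed. Of 30 DNA replication genes none passed, the median was 0.25 and 27 were above 0. Pole, the catalytic subunit of DNA polymerase epsilon, had 63.03, 34.5 and 51.6 CPM in LRC against 35.5, 23.4 and 35.8 CPM in nLRC libraries 1 to 3 (0.65 ± 0.37), and Mcm6, part of the replicative helicase, averaged 122 in LRC and 95.2 CPM in nLRC libraries (0.36 ± 0.30). The 2 lists thus had medians of opposite sign, and the difference between them was not tested. CDK inhibitors and pocket proteins (0 of 13 passed, median 0.29) included Cdkn1a, an inhibitor induced by p53, with 70.6, 101 and 126 CPM in LRC against 54.4, 82.7 and 81.4 CPM in nLRC libraries 1 to 3 (0.45 ± 0.24). Of G1 cyclins, CDKs and E2F genes 0 of 17 passed (median 0.08).

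Layer identity genes did not pass in the fit of the 18 back skin libraries either. Of 22 basal keratin, integrin and basement membrane genes none rose or fell, with a median of −0.0039, which was 0.07 on exon TPM; Krt14 had 6829, 8958 and 6149 CPM in LRC against 11166, 13299 and 8287 CPM in nLRC libraries 1 to 3 (−0.58 ± 0.32) and Lamb1, a laminin chain, 10.03, 15.2 and 6.40 CPM in LRC against 16.7, 32.9 and 19.5 CPM in nLRC libraries 1 to 3 (−1.12 ± 0.40). Early differentiation and Notch genes (0 of 22, median 0.09) included Krt10, the main keratin of spinous cells, with 1426, 2043 and 2532 CPM in LRC against 1388, 1616 and 1439 CPM in nLRC libraries 1 to 3 (0.43 ± 0.54). Krt10 was thus read at high levels in all 6 basal libraries. Late differentiation and barrier genes (0 of 21 passed) had a median of −0.15, which was 0.02 with the replicate block. In a fit of the 6 libraries alone with the replicate block, some members of these lists did pass. Krt14 and Lamb1 were lower (3.81% of all genes in that fit), and the integrin gene Itga2 was higher (2.36%). Ovol1 of the early list and Abca12 and Spink5 of the late list were also higher in it.

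Apart from the IGF list, the signalling and immune lists held 1 gene past the test, C3. Of 36 Wnt genes 0 passed (median −0.05), and 1 fell with the replicate block, the receptor gene Fzd7, with 14.3, 15.3 and 12.04 CPM in LRC against 24.2, 35.6 and 37.5 CPM in nLRC libraries 1 to 3 (−1.22 ± 0.29, edgeR adjusted p = 0.0221 with the block). Next by p were Fzd1 (−0.70 ± 0.28) and Wnt11 (−1.15 ± 0.47), a receptor and a ligand, and Lgr6 (0.52 ± 0.33), a receptor for R-spondins. Of 34 BMP and TGF-β genes 0 passed (median −0.12), and 1 fell with the block, the ligand gene Tgfb3, with 3.44, 5.26 and 4.10 CPM in LRC against 8.83, 18.5 and 16.5 CPM in nLRC libraries 1 to 3 (−1.77 ± 0.49, edgeR adjusted p = 0.0306 with the block). Of 20 EGF receptor axis genes 0 passed (median −0.21), among them the feedback inhibitor Spry4 with no read in LRC libraries and 0.479, 0.942 and 0.671 CPM in nLRC libraries, at least 3.86-fold lower. Of 24 immediate early genes 0 passed (median −0.06, and 0.03 on exon TPM). Of 14 complement genes C3 fell, and of 20 interferon response genes 0 passed (median −0.43, 18 below 0). In the fit of the 6 libraries alone with the block, 1 Wnt gene was higher and 2 lower. For BMP and TGF-β genes it was 2 higher and 5 lower, and for complement genes 1 higher and 2 lower. Only lower were 4 immediate early, 2 EGF receptor axis and 1 interferon response gene. Over all genes the shares were 2.36% higher and 3.81% lower.

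No gene of the metabolic and clock lists passed in the fit of the 18 back skin libraries. All 22 measured nuclear genes of oxidative phosphorylation were below 0 (median −0.27), and 8 of them had LRC libraries below all nLRC libraries (8.67% of all genes), but 0 passed. On exon TPM 21 of the 22 were below 0. Atp5b, a subunit of ATP synthase, had 304, 364 and 409 CPM in LRC against 395, 499.8 and 490.0 CPM in nLRC libraries 1 to 3 (−0.36 ± 0.26). Of 22 cholesterol synthesis genes 0 passed (median −0.31, 20 below 0). Of 21 glycolysis and hypoxia genes 0 passed (median 0.16, 18 above 0), with Hif1a, the oxygen-sensing factor, at 297, 361 and 401 CPM in LRC against 224, 254 and 237 CPM in nLRC libraries 1 to 3 (0.57 ± 0.22). Of 19 circadian clock genes 0 passed (median 0.11, 18 above 0), with the clock output factor gene Hlf at 243, 276 and 296 CPM in LRC against 163, 174 and 171 CPM in nLRC libraries 1 to 3 (0.68 ± 0.41). The fit of the 6 libraries alone with the replicate block called 901 of 14593 genes (6.17%), 345 higher (2.36%) and 556 lower (3.81%). In it 6 DNA replication genes (Pole, Pola1, Mcm2, Mcm3, Mcm4 and Mcm6) and 5 glycolysis and hypoxia genes (Hif1a, Pfkp, Vegfa, Slc16a3 and Bnip3) were higher. In the same fit 6 cholesterol synthesis genes (among them Mvd, Lss, Insig1 and Msmo1) were lower, and of mitosis genes Ttk and Prc1 were higher and Plk1 and Cenpa lower. Atp5a1 and Atp5b were lower in it too, and Hlf, Cdkn1a and the cyclin gene Ccne2 were higher.

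Markers of skin appendages were counted as well, since follicle and gland cells can enter a sort of basal cells. Of 27 bulge genes Foxc1 fell and 26 did not pass (median −0.15, and −0.29 without bulge library 2). In 6 of them LRC lay below all nLRC libraries (8.67% of all genes tested). Sox9, a bulge transcription factor, had 8.94, 8.71 and 5.08 CPM in LRC against 13.99, 31.1 and 29.5 CPM in nLRC libraries 1 to 3 (−1.71 ± 0.49). Of 16 upper follicle and infundibulum genes 0 passed (median −0.47), Krt79 having 16.9, 31.1 and 21.3 CPM in LRC against 36.5, 63.5 and 78.96 CPM in nLRC libraries 1 to 3 (−1.37 ± 0.48). Sebocyte genes had the lowest median of the lists with 5 or more measured members (−1.55). Of 17, 15 were below 0 (51.3% of all genes tested), and 11 had LRC below all nLRC libraries (8.67%). Of these 17, 1 passed, Mgst1, and with the block 2, Mgst1 and Plin2 (edgeR adjusted p = 0.0236). Pparg, the nuclear receptor that directs sebocyte differentiation, had 1.51, 1.21 and 2.50 CPM in LRC against 12.8, 32.4 and 19.6 CPM in nLRC libraries 1 to 3 (−3.64 ± 0.87). Soat1, which esterifies cholesterol, had 0.302, 1.27 and 1.39 CPM in LRC against 4.999, 16.6 and 14.5 CPM in nLRC libraries 1 to 3 (−3.60 ± 0.80). Mc5r, the melanocortin receptor of sebaceous glands, had 0, 0 and 0.696 CPM in LRC against 1.81, 4.43 and 3.02 CPM in nLRC libraries 1 to 3 (−3.84 ± 1.04). These genes were low in LRC libraries and higher in every nLRC library, and none of the 3 passed. Acsbg1 (0.05 ± 0.47) and Fasn (−0.17 ± 0.40), lipid genes that keratinocytes also express, overlapped between groups. The summed level of the 17 genes was 629 to 767 in LRC and 753 to 1257 CPM in nLRC libraries, and averaged 7059 CPM in spinous nLRC libraries. Without bulge library 2, 5 of the 17 were lower past the test (0.672% of all genes). In the fit of the 6 libraries alone with the block, 9 sebocyte genes and 7 bulge genes were lower (3.81% of all genes). The part of sebaceous cells in the 37 lower genes was not tested.

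**Figure D3:**
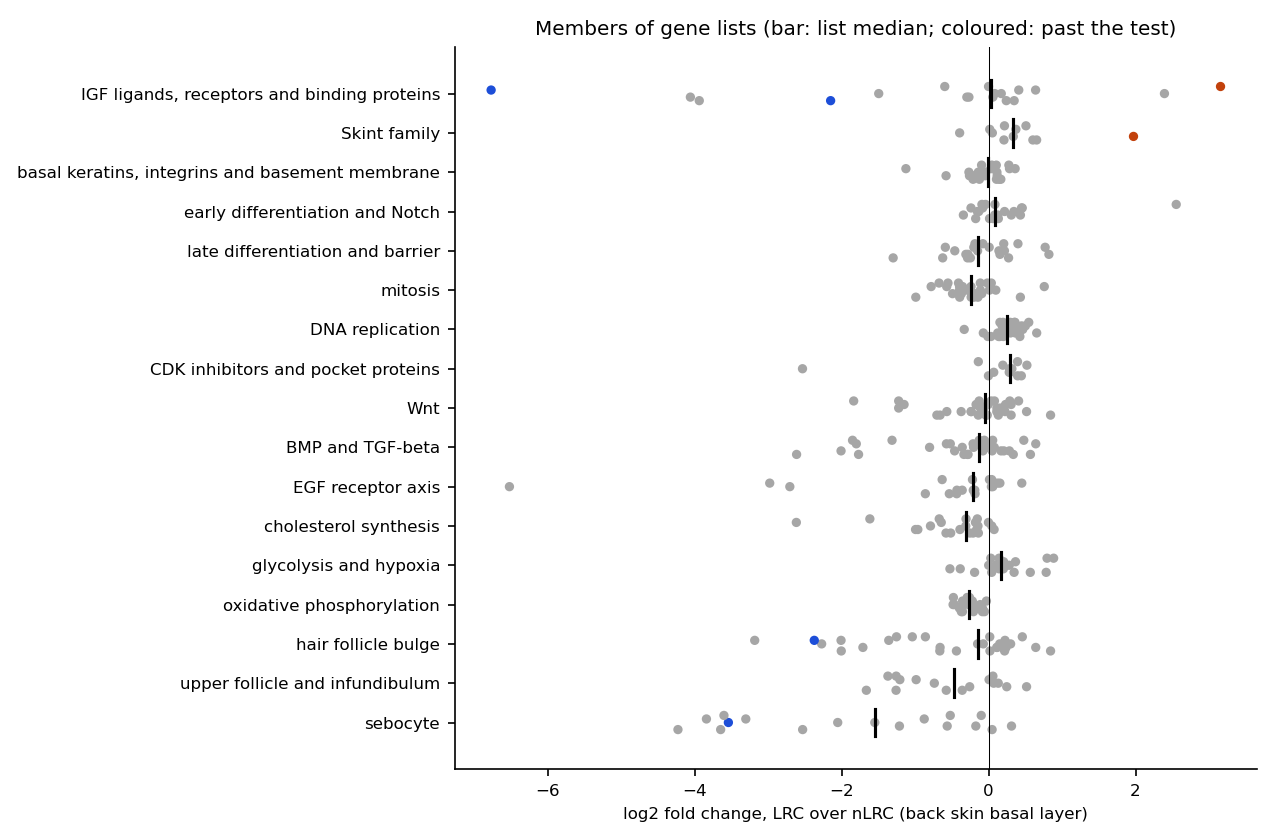
Log2 fold change of LRC over nLRC in back skin basal layer (horizontal axis) for the members of 17 gene lists (rows), with a bar at each list's median. Members past the test are orange (higher in LRC) or blue (lower in LRC) and all others grey; the sebocyte list has the lowest median of those shown, −1.55.

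Other cell types were counted by marker lists. Summed over the list, 12 fibroblast genes had 2.08 to 4.38 in LRC and 4.41 to 4.70 CPM in nLRC libraries, 10 endothelial genes 3.32 to 4.20 CPM and 3.40 to 3.97 CPM, and 6 mast cell genes 0.0604 to 0.101 CPM and 0.112 to 0.585 CPM in the same order. For 11 T cell genes the sums were 71.2 to 88.4 in LRC and 109 to 128 CPM in nLRC libraries, with no overlap; Thy1 alone had 67.1, 82.8 and 73.05 CPM in LRC against 106, 124 and 117 CPM in nLRC libraries 1 to 3 (−0.64 ± 0.36), and Cd3e averaged 1.13 ± 0.560 in LRC and 0.372 ± 0.250 CPM in nLRC libraries. For 12 Langerhans and myeloid genes the sums were 41.2 to 53.6 in LRC and 46.5 to 93.9 CPM in nLRC libraries. The highest of these by mean was Epcam, an adhesion gene that epithelial cells also express, and next was Cd74, which helps present antigens. Epcam averaged 19.96 ± 4.11 in LRC and 29.4 ± 2.53 CPM in nLRC libraries. Cd74 had 9.49, 14.3 and 16.4 CPM in LRC against 5.96, 36.4 and 22.3 CPM in nLRC libraries 1 to 3 (−0.69 ± 0.77), and Cd207, which marks Langerhans cells, averaged 0.403 in LRC and 0.289 CPM in nLRC libraries. The sums for 9 melanocyte genes were 90.8 to 114 in LRC and 88.0 to 111 CPM in nLRC libraries. They were mainly Mitf, which averaged 95.4 in LRC and 88.9 CPM in nLRC libraries. Schwann cell genes (6, mainly Mbp) summed to 144 to 203 in LRC and 123 to 175 CPM in nLRC libraries, red blood cell genes (5) to 1.87 to 6.65 CPM and 2.07 to 3.97 CPM, muscle genes (8) to 0.906 to 1.42 CPM and 0.942 to 1.81 CPM, and Merkel cell genes (7) to 0 to 0.626 CPM and 0.330 to 0.585 CPM in the same order. No member of these 10 lists passed in the fit of the 18 back skin libraries. With the 6 libraries alone and the block, Thy1 and Epcam were lower (3.81% of all genes), and Ngfr of the Schwann cell list was higher (2.36%). Their part in the results was not tested.

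The same label contrast was made in the spinous layer, where 2571 of 16574 genes passed (15.5%), 1141 higher (6.88%) and 1430 lower (8.63%). Each of the 39 genes moved the same way there and passed, Igfbp3 and Skint7 higher and all 37 others lower. The spinous log2 fold change was the more negative one for 33 of the 37 (50.0% of all genes tested). Cers4 averaged 3.83 ± 2.49 CPM in spinous LRC and 446 ± 145 CPM in spinous nLRC libraries, a log2 fold change of −6.86 ± 0.78 against −3.68 ± 0.69 in the basal layer. Foxc1 averaged 20.9 ± 10.6 CPM in spinous LRC and 136 ± 18.8 CPM in spinous nLRC libraries, −2.70 ± 0.46 against −2.37 ± 0.47. Epb41l3 was one of 4 genes with the larger fall in the basal layer, −1.89 ± 0.35 there and −1.21 ± 0.36 in the spinous layer; the others were Cd200, Igfbp2 and Pm20d1. The difference between the layers' effects was tested as an interaction, and it passed for 65 of 16574 genes (0.392%), 48 with a positive difference (0.29%) and 17 with a negative one (0.103%). Of the 39, Igfbp4 alone passed, with −2.15 ± 0.37 in the basal and −4.63 ± 0.42 in the spinous layer, a difference of 2.48 ± 0.52 (edgeR adjusted p = 0.0460). That call was lost in 13 of 18 fits that left out 1 back skin library each (edgeR adjusted p up to 0.165), while the difference stayed between 2.18 and 2.79. With the replicate block the interaction passed for 386 genes, and among the 39 for Igfbp4, Tmem176b and Mpp6.

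Across the 6 back skin populations, 28 of the 37 lower genes had their lowest mean in basal LRC libraries (14.8% of all genes tested). Their selection had already put them below basal nLRC there. Another 8 were lowest in spinous LRC (15.8%) and 1 in bulge libraries (28.6%). Of the 37, 22 had their highest mean in spinous nLRC libraries (15.1% of all genes tested), 14 in bulge libraries (31.4%) and 1, Epb41l3, in basal nLRC libraries (7.95%). Bnc2 averaged 4.88 ± 0.982 CPM in basal LRC and 49.2 ± 5.74 CPM in basal nLRC libraries, and 751 ± 393 CPM in bulge libraries. Ptn averaged 19.95 ± 2.65 CPM in basal LRC, 50.6 ± 9.71 CPM in basal nLRC and 524 ± 205 CPM in bulge libraries. Igfbp4 reached 489 ± 70.4 CPM in spinous nLRC libraries, and Epb41l3 averaged 26.1 ± 7.92 CPM in basal nLRC and at most 7.02 CPM in any other population. Igfbp3 was highest in basal LRC libraries, next at 121 ± 54.1 CPM in spinous LRC, and 49.9 ± 33.4 CPM in granular libraries. Skint7 was highest in spinous LRC (106 ± 0.729 CPM), followed by basal LRC and granular libraries (47.3 ± 2.72 CPM). Bulge library 2 stood apart with 9785944 reads and an intron share of 28.2% in the median gene with long introns, against 61.2 to 78.7% in the other 17 back skin libraries. Without it, 128 genes passed in the basal layer (0.735%), 11 higher (0.0632%) and 117 lower (0.672%), with all 39 among them.

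**Figure D4:**
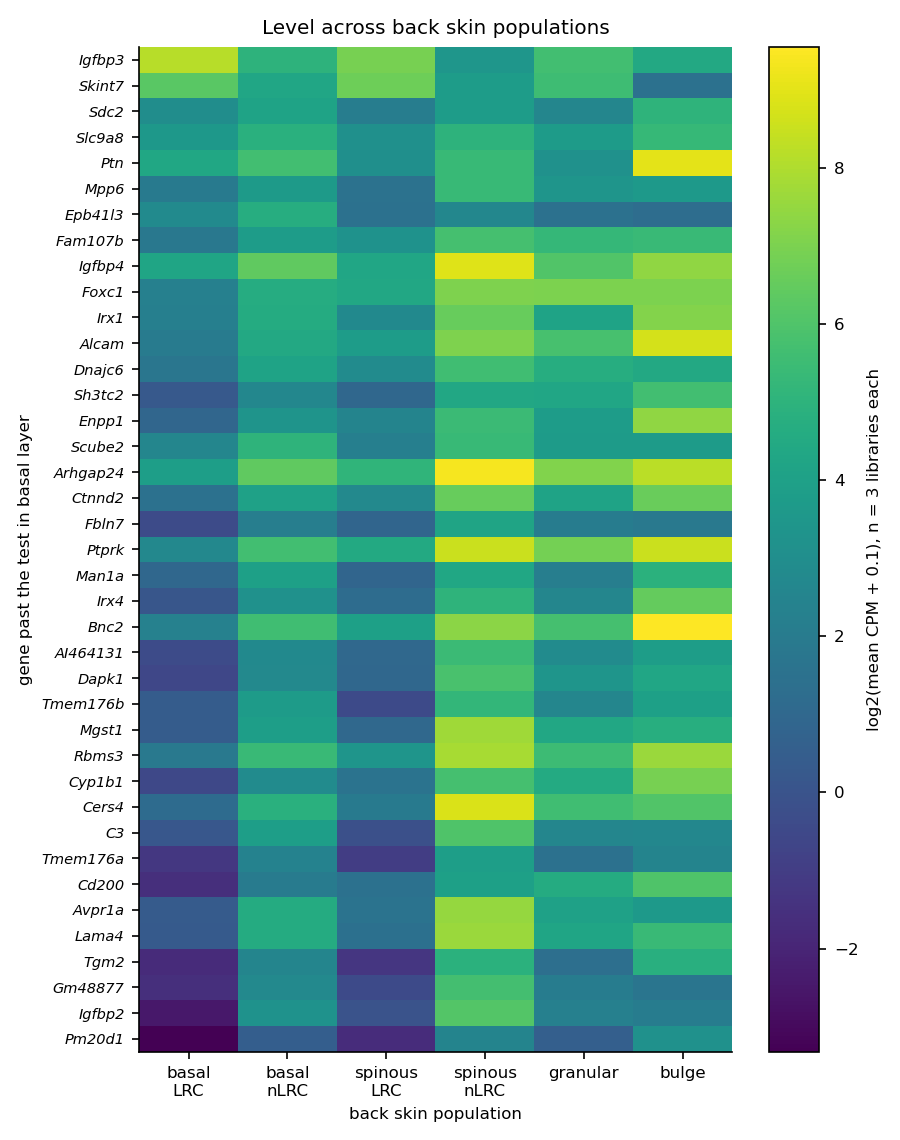
Mean level of the 39 genes (rows) in the 6 back skin populations (columns, 3 libraries each), as log2(mean CPM + 0.1) on a colour scale from dark (low) to yellow (high). Basal LRC is the darkest column for 28 of the 37 lower genes (14.8% of all genes tested had their lowest mean there). The 37 are brightest in spinous nLRC (22 genes), bulge (14 genes) or basal nLRC (1 gene).

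The label contrast in tail skin basal layer, from tables that were scaled separately, gave 690 of 14993 genes past the test (4.6%). Of the 37, 34 were measured in tail skin. There 10 rose (3.12% of all genes tested in tail skin), 2 fell (1.48%) and 22 did not pass. Those that fell were Tmem176b (−2.63 ± 0.39) and Epb41l3 (−3.14 ± 0.52). Those that rose were Arhgap24, Irx1, Foxc1, Sh3tc2, Alcam, Ptprk, Enpp1, Ptn, Bnc2 and Ctnnd2. Arhgap24 had 126, 60.8 and 143 CPM in tail LRC and 11.6, 8.40 and 15.6 CPM in tail nLRC libraries (3.21 ± 0.35, edgeR adjusted p = 0.000826). Irx1 had 53.3, 12.6 and 37.6 CPM in tail LRC and 4.69, 1.68 and 3.49 CPM in tail nLRC libraries (3.38 ± 0.50, edgeR adjusted p = 0.00454). In both genes each tail LRC library lay above each tail nLRC library, the reverse of back skin. Of the 34 genes, 14 had each tail LRC library above each tail nLRC library in CPM (14.0% of genes tested in tail skin), and 15 did in exon TPM (23.2%), among them all 10 that rose. The intron share of the median gene with long introns was 64.0, 82.7 and 70.6% in tail LRC and 45.0, 55.7 and 62.7% in tail nLRC libraries. It thus separated the tail groups too, and its part in these values was not tested. On exon reads, Irx1 had 57.7, 15.4 and 44.8 TPM in tail LRC and 3.18, 1.40 and 3.89 TPM in tail nLRC libraries. Igfbp3 had −0.17 ± 0.36 in tail skin, Igfbp2 −1.13 ± 0.40 and Igfbp4 −0.29 ± 0.32, none past the test, and Skint7 was not tested there. The difference between back and tail skin was not tested, since the tables were made separately. In palate and tongue, with 2 libraries per group, 0 of 33 measured lower genes passed (edgeR; 0% of genes tested passed in palate and 0.0067% in tongue, 1 gene, higher in LRC). Of these 33 genes, 16 were below 0 in palate and 30 in tongue, where 48.7% (palate) and 51.1% (tongue) of all genes tested were below 0.

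**Figure D5:**
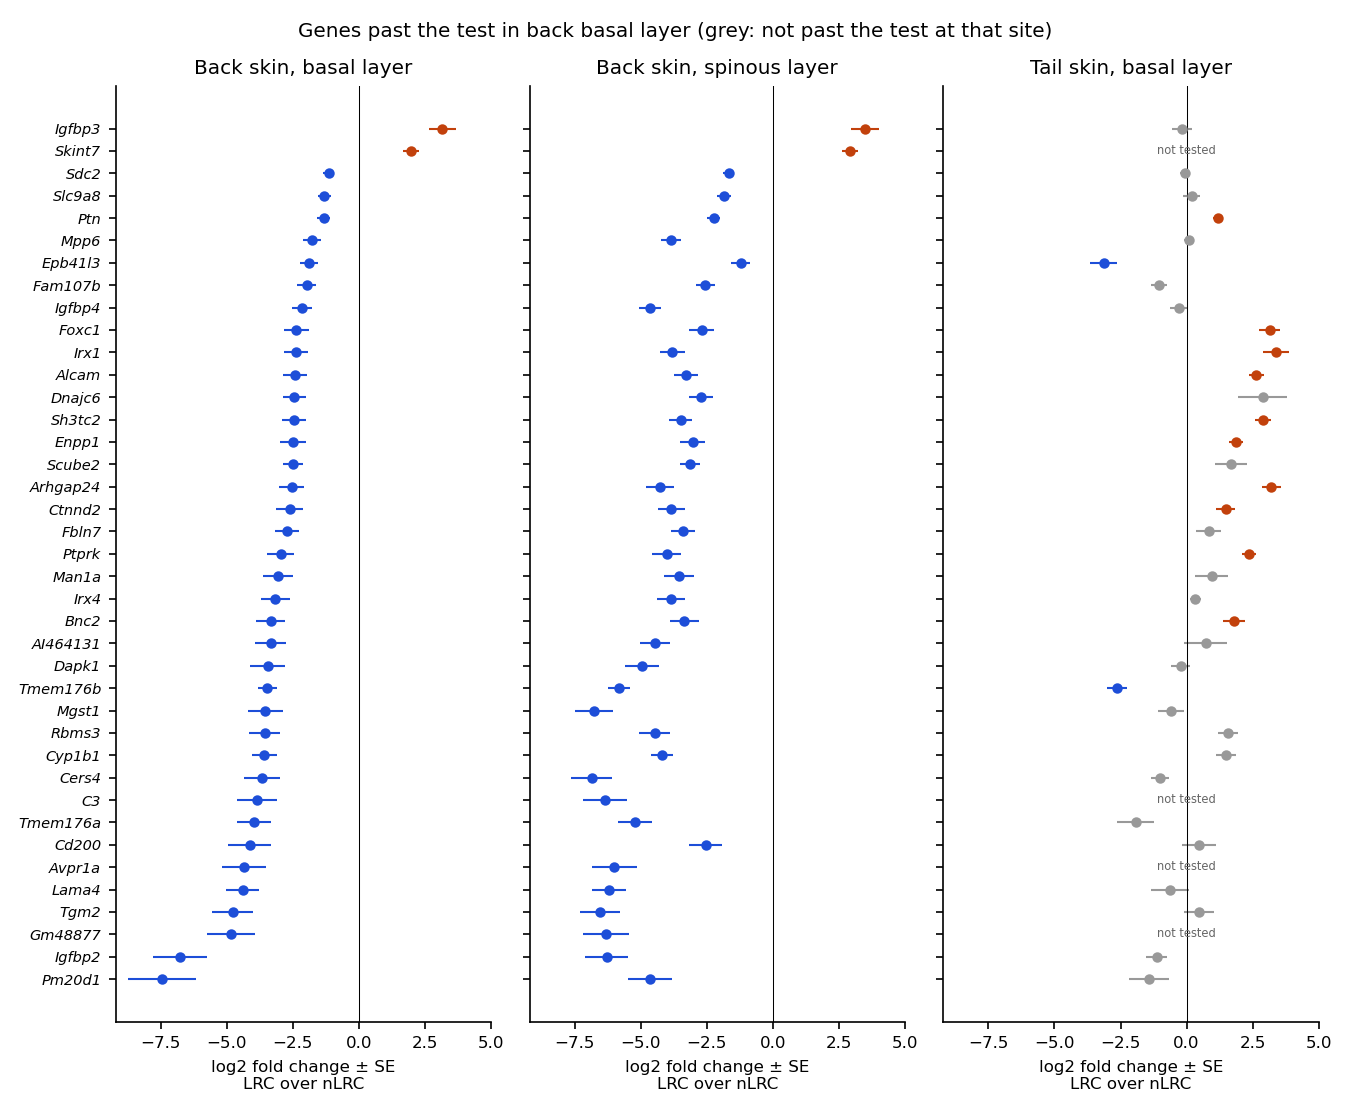
Log2 fold change of LRC over nLRC ± SE (horizontal axes) of the 39 genes past the test in back skin basal layer (rows), in back skin basal layer (left), back skin spinous layer (middle) and tail skin basal layer (right). Orange marks genes higher and blue genes lower past the test at that site, grey those not past it: all 37 lower genes are blue in both back layers, and 10 are orange in tail skin.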

How the data were processed

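Per the labels' protocols, skin was digested in trypsin, cells were stained with antibodies and sorted into Trizol, and total RNA libraries were made with the SMARTer Stranded Pico v2 kit. For each of 53715 genes the authors deposited counts (total gene reads), TPM and RPKM in every library. From the values, the counts hold intron reads while the deposited TPM and RPKM rest on exon reads. RPKM was used only to estimate intron shares. Which aligner, counting tool and annotation were used, and whether strand was, is not given. The submitters' processing notes name mm10 as the genome build, which the positions here follow (51843 names matched once).

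Counts of the 18 back skin libraries were fitted with edgeR 4.0.16 (R 4.3.3): TMM scaling, filterByExpr (minimum count 10, minimum total 15), quasi-likelihood test, Benjamini-Hochberg over all genes kept, 6 group means and no replicate block. Each SE was taken from the fold change and its F statistic. Tail libraries and oral libraries were fitted apart. Replicates differed by more than sampling noise (lowest chi-square over its degrees of freedom 30.4). The fit was also run on simulated counts with independent libraries and the same spread for every gene. These counts lack the pairing by replicate number, so that run does not measure the fit's error rates on these data.

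Every replicate number occurs in each group. Deviations from group means over 9439 genes correlated at 0.543 to 0.629 between LRC and nLRC libraries of the same number and at −0.520 to −0.146 otherwise, so the numbers pair the libraries, and the fit with the number as a block is given where it changes a call. Alternatives were DESeq2 1.42.0, median-of-ratios scaling, a fit with every gene, limma 3.58.1 on log2 of exon TPM plus 1 or 0.1 (TPM of at least 1 in 3 libraries), the 6 libraries alone, fits without bulge library 2, and each library left out. The fit with the block and without bulge library 2 was chosen after seeing the data.

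Named genes were every gene past the test, the next 12 higher and 6 lower genes without overlap at an average log2 CPM of at least 3, up to 4 members of smallest p per list, all IGF and Skint genes, Dlx1, Slc1a3 and 6 markers of the sort; the text prints a part of these for length. Pparg, Mc5r, Fasn, Acsbg1, Atp5b, Mcm6, Mbp, Cd207, Mki67, Top2a, Cdk1 and the genes named for the fit of 6 libraries were chosen after their values were seen. The 33 lists (577 genes) and the comparison itself were chosen with earlier results of these data known. Lists carry no test; their counts and medians stand beside those of all genes. The ± SE values include the spread between libraries that edgeR fitted, while the floors of 3 reads cover counting error only.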

Additional observations from a re-analysis of the deposited data

Results flagged for a closer look

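Igfbp4 fell less in basal than in spinous LRC, by 2.48 on the log2 scale, and this was flagged because the interaction passed (edgeR adjusted p = 0.0460). Igfbp4 fell past the test in LRC of both layers.

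Another 14 genes were flagged because all 3 LRC libraries lay below all 3 nLRC libraries in back skin basal layer and above them in tail skin basal layer. The difference between the sites was not tested. Every one of the 37 lower genes meets the back skin part of this condition, and 14.0% of all genes tested in tail skin meet the tail part. Of the 14, 10 passed the test in tail skin by themselves. The tail log2 fold changes were 1.51 for Cyp1b1, 1.68 for Scube2, 1.57 for Rbms3, 1.78 for Bnc2, 2.36 for Ptprk, 2.90 for Sh3tc2 and 1.18 for Ptn. They were 2.87 for Dnajc6, 2.64 for Alcam, 3.38 for Irx1, 3.21 for Arhgap24, 1.48 for Ctnnd2, 1.88 for Enpp1 and 3.14 for Foxc1.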

How the results depend on the processing

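No named gene past the test changed direction under any alternative run, but the counts moved. In the basal layer 39 genes passed; 38 did with median-of-ratios scaling, 227 by DESeq2, 180 without the low-count filter, 95 with the replicate block, 128 without bulge library 2, 332 with both of the last, 64 with the 6 libraries alone (23 of the 39 among them) and 901 with these 6 and the replicate block; all 39 were among the 227, 180, 95, 128, 332 and 901. By limma 0 passed on log2 of exon TPM plus 1 and 0 on TPM plus 0.1, with 396 and 450 genes at an unadjusted p under 0.05. Leaving out single libraries other than bulge 2 gave 2 (without nLRC 2) to 63 (without bulge 1), with 11 without spinous nLRC 1, 18 without spinous nLRC 2, 12 without spinous nLRC 3, 21 without spinous LRC 1, 19 without granular 1 and 16 without granular 3. For the difference between basal and spinous effects 65 genes passed; 73 did with median-of-ratios scaling, 590 by DESeq2, 172 without the filter, 386 with the replicate block, 866 without bulge library 2, 2182 with both of the last, 0 and 0 by limma on exon TPM plus 1 and plus 0.1, and 10 (without basal nLRC 1) to 246 (without bulge 1) when single libraries other than bulge 2 were left out. The causes were not tested. With 3 libraries per group, the smallest change past the test was −1.14 on the log2 scale (Sdc2), and Igfbp2, Tgm2, Cd200 and Pm20d1 rest on at most 8 reads in any LRC library. No test of the lists was made.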
